A study of Mus musculus with 18 samples.

Results

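Cathepsins are the proteases of the lysosome, and cystatins are inhibitors of those cathepsins that cut with a cysteine. In the wire-injured mouse carotid artery, 10 genes of this system were followed at the level of their transcripts, chosen by symbol from the deposited count table: the cysteine cathepsins Ctss, Ctsk, Ctsc, Ctsb, Ctsz and Ctsl, the aspartic cathepsin Ctsd, the serine carboxypeptidase Ctsa, and the inhibitors Cst3 (cystatin C) and Cstb (cystatin B). All 10 were found among the 35655 genes of the table and all 10 passed the filter on low counts, as did 10312 genes in total. The 18 libraries were 3′ transcript counts (MACE) from laser-dissected carotid sections of wild-type (WT) C57/BL6 mice, which carried no transgene and, by the study's methods, were males on chow, injured at 11 weeks of age. Before injury (labelled day 0, pre-injury) 4 libraries were taken. Wire injury, in which a wire passed through the vessel damages it from within, was followed by 4 libraries at day 7, 3 at day 14, 4 at day 21 and 3 at day 28. The dissected area held the neointima, the tissue that forms on the inner side of the injured wall, together with the wall out to the outer elastic lamina. By the study's methods the left carotid was injured and the right one served as control, and thrombosed vessels were removed. Whether the day 0 libraries came from such control vessels is not stated, and the number of animals behind a library is not given, the study calling its samples pooled. The p-values below measure the spread between these libraries.

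In a resting artery, cathepsins degrade proteins within lysosomes. After injury, macrophages and smooth muscle cells can release them, and cathepsins S, K and L are known to cut elastin and collagen in the vessel wall. Cystatin C, which smooth muscle cells secrete, holds the secreted cysteine cathepsins in check, and cystatin B acts within cells. The balance of protease and inhibitor is known from atherosclerosis and aneurysm as a factor in the breakdown of the elastic laminae.

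Every cathepsin called higher on any day was already called on day 7, as was the inhibitor Cstb. The inhibitor Cst3 was called lower on day 7 and higher on day 21, and neither call of Cst3 held in every alternative tried. On day 7, 7 of the 10 genes were higher than on day 0 (Ctss, Ctsc, Ctsk, Ctsb, Cstb, Ctsd and Ctsz) and 1 was lower (Cst3), while 11.3% of all genes tested were higher and 8.53% lower. On day 14 the higher ones were Ctss, Ctsk and Ctsc, and none was lower, against 4.80% and 1.42% of all genes. Day 21 had 5 higher members (Ctss, Ctsk, Ctsc, Ctsb and Cst3) and none lower, against 5.92% and 2.93% of all genes. By day 28 none passed the test in either direction, against 0.970% of all genes higher and 0.369% lower. On that day 3 of the 10 members, and 1521 of the 10312 genes tested, had an unadjusted p under 0.05 in edgeR. DESeq2, the other tool run, also called 0 members, and 318 genes. Over the 10 members the median log2 fold change against day 0 took the values 1.458, 0.621, 0.793 and 0.37 on days 7, 14, 21 and 28, beside 0.071, 0.046, 0.067 and -0.006 over all genes tested. These 4 comparisons share the day 0 libraries. Calls are from edgeR's quasi-likelihood test, with p-values adjusted by Benjamini-Hochberg across the whole table and a threshold of 0.05. CPM are counts scaled to a common total after TMM normalisation. Because the libraries hold 3′ ends and were made from bulk tissue, levels are not ranked between genes, and fewer cells of a type and less RNA per cell cannot be told apart.

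**Figure D1:**
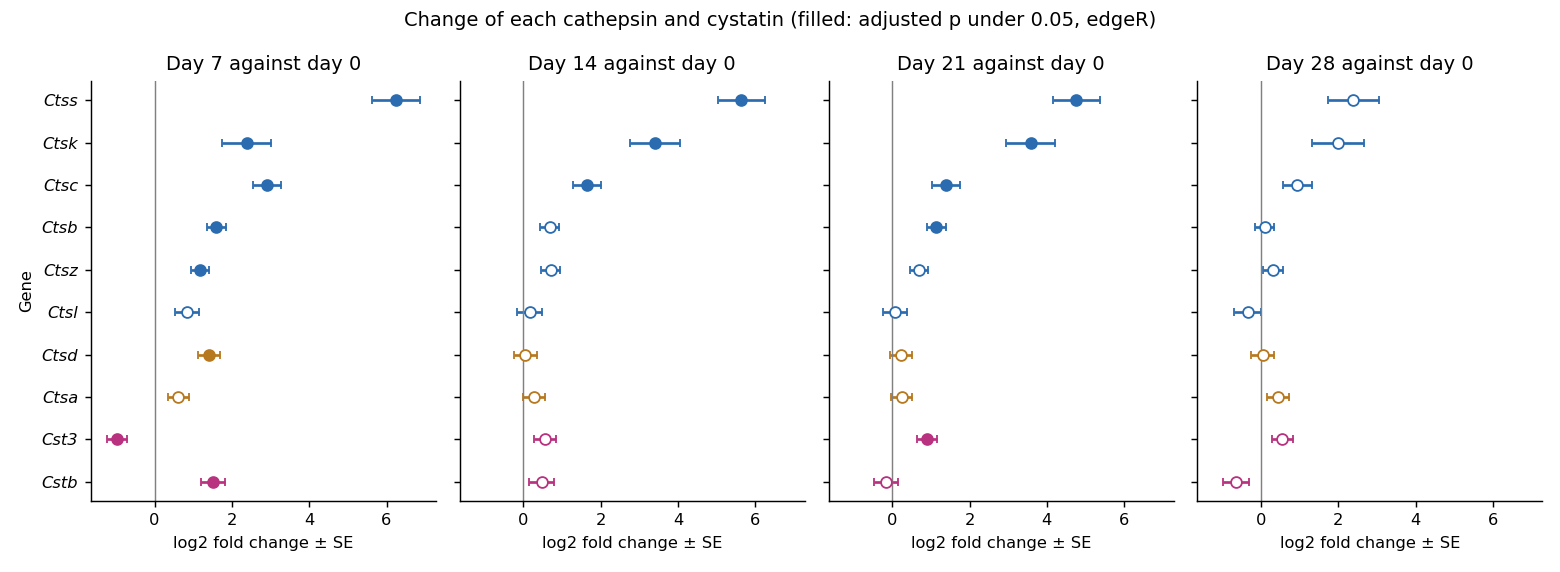
Log2 fold change against day 0 (x axis, ± SE) of each cathepsin and cystatin (y axis) on days 7, 14, 21 and 28, from edgeR with 4 libraries on days 0, 7 and 21 and 3 on days 14 and 28. Filled points passed the adjusted p of 0.05, blue marks cysteine cathepsins, brown Ctsd and Ctsa, and magenta the cystatins. Ctss stands farthest to the right on day 7 at 6.25, and Cst3 is left of zero on day 7 and right of it on the later days.

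The libraries held 440675 to 878310 counts, with a median of 659166. Cell type markers shifted with the days and are given here once. Every result below comes from libraries that hold that shift, and none was adjusted for it. The summed CPM of 14 macrophage markers (such as Cd68, Csf1r and Adgre1, all 14 tested) ranged from 116 to 576 on day 0, 4951.9 to 7455.6 on day 7, 1361.3 to 2978.9 on day 14, 2063.9 to 3798.2 on day 21 and 902 to 1225.6 on day 28. Of these markers 14 were higher on each of days 7, 14 and 21 and 4 on day 28, and Itgam and Mpeg1 were at 0 in every day 0 library. Smooth muscle, the main cell type of a carotid wall, was seen in all libraries. Its 8 markers (such as Acta2 and Myh11) summed to 31861.2 to 37221.8 CPM on day 0, 1518.4 to 7016.2 on day 7, 7344.9 to 23098.2 on day 14, 8323 to 21664.3 on day 21 and 20067.9 to 28249 on day 28. Of the 7 of them tested, 7, 4, 4 and 1 were lower on days 7, 14, 21 and 28. Neutrophil markers (10 listed, 4 tested) summed to 26.8 to 101 CPM on day 0 and 231 to 798 on day 7. Of the 4 tested, 4, 1, 3 and 0 were higher on days 7, 14, 21 and 28, and of the others Ly6g, Camp, Ngp and Ltf were at 0 on day 7. Of 7 osteoclast markers, which matter for Ctsk, the sum was 11.8 to 26.8 CPM on day 0 and 58.8 to 217 on day 7, with Calcr and Oscar at 0 on both days. The mean sum was 130, 61.3, 60.5 and 10 CPM on days 7, 14, 21 and 28. Whether Ctsk came from such cells was not tested. Of the 2 osteoclast markers tested, 1, 0, 1 and 0 were higher on these days than on day 0. Fibroblast markers (8 listed, 8 tested) had mean sums of 1950.6, 1299, 3275.1, 3157.5 and 1738.1 CPM over the 5 days in order, with 5 lower and 1 higher on day 7. On each of days 14, 21 and 28 only 1 was higher, and 1, 2 and 0 were lower. Their median log2 fold change was -1.2, -0.02, -0.49 and -0.56 on days 7, 14, 21 and 28. The mean fibroblast sum, the mean smooth muscle sum and the mean of Cst3 were all lowest on day 7. On days 14, 21 and 28 mean Cst3 was above day 0 (5619.7, 7067.2 and 5579.6 against 3815.2 CPM). The mean smooth muscle sum was below day 0 on these days (12934.2, 14202.1 and 23381.4 against 35118.7 CPM). The mean fibroblast sum was above day 0 on days 14 and 21 and below it on day 28. Endothelial markers (8 listed, 8 tested) had day means of 863 to 1215.3 CPM, with 3 higher and 1 lower on day 7. Lymphocyte markers had day means of 9.28 to 35.8 CPM, and mast cell markers, with Cpa3, Mcpt4, Tpsb2 and Cma1 at 0 on day 7, of 0.957 to 40.7 CPM. Erythroid genes, a sign of blood, had a mean of 214 CPM on day 0, 1565.5 on day 7 and 44.7 to 173 on the later days. Day 7 replicate 4 stood apart from the other day 7 libraries, with the highest smooth muscle sum of that day (7016.2 CPM). The part of these shifts in the results on cathepsins and cystatins was not tested.

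**Figure D2:**
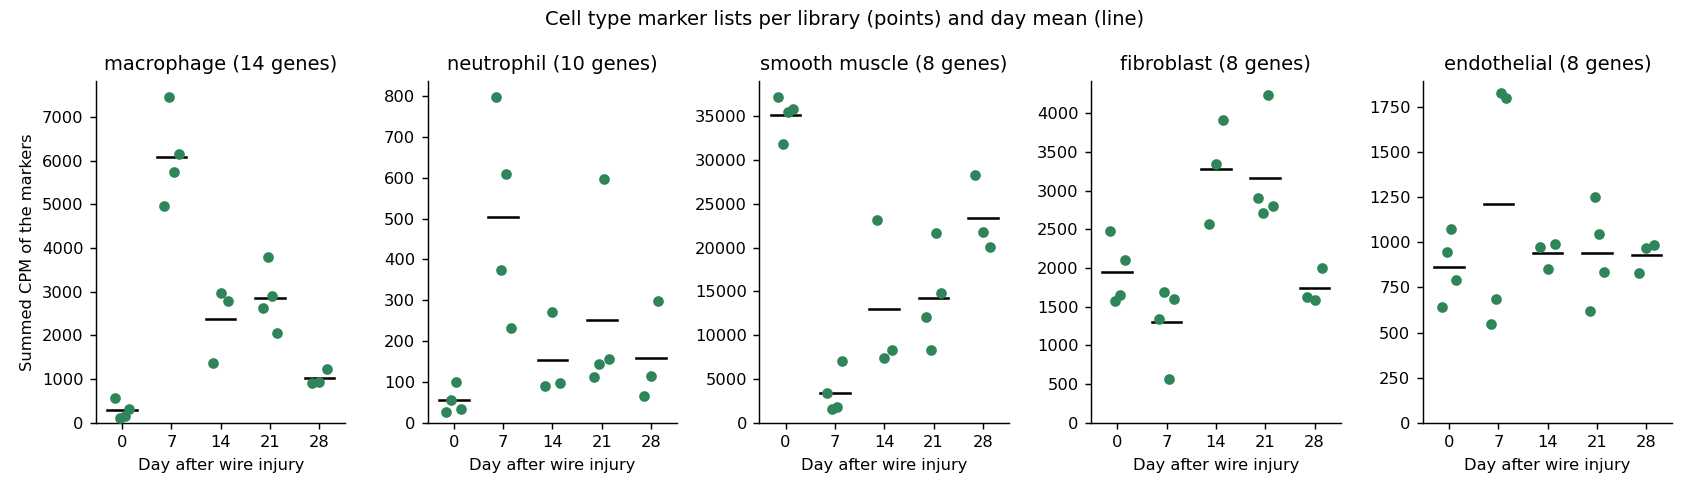
Summed CPM of the marker genes of 5 cell types (y axis, linear from 0) in each library (points) by day after injury (x axis), with the day mean as a line. The macrophage sum is highest on day 7 (mean 6076.9) and the smooth muscle sum lowest on that day (mean 3455).

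Cathepsin S, the enzyme that trims the invariant chain from MHC class II and that remains active at neutral pH, changed most among the members by log2 fold change against day 0 on days 7, 14 and 21. On GRCm39 the annotation places Ctss on chromosome 3 from 95433963 to 95463717 on the plus strand, 17230 bases beyond the end of Ctsk, its neighbour on the same strand at 95406178 to 95416732. No exon of another annotated gene overlaps an exon of either of them. On day 0 Ctss had 1.49, 8.37, 16.4 and 1.31 CPM in replicates 1 to 4, from 1, 7, 11 and 1 counts. It reached 580, 613, 468 and 471 CPM on day 7, a log2 fold change of 6.25 (SE 0.62, adjusted p = 1.3e-07), or 76.0-fold. The day 14 libraries had 168, 563 and 322 CPM (5.64, SE 0.62, adjusted p = 2.1e-06), and the day 21 libraries 213, 133, 284 and 128 CPM (4.76, SE 0.60, adjusted p = 1.6e-05). Each library of these 3 days lay above each day 0 library. Without day 0 replicate 3, the highest of that day, the log2 fold changes were 7.02, 6.42 and 5.54. On day 28 Ctss had 46.0, 3.31 and 59.1 CPM. Replicate 2 of that day lay within the day 0 range, and the difference from day 0 was not called (log2 fold change 2.38, SE 0.66, adjusted p = 0.0768), although without that library the adjusted p was 0.0152.

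Cathepsin K, the collagenase by which osteoclasts resorb bone and which also cuts elastin, had its highest day mean on day 21, where its neighbour Ctss had it on day 7. Its day 0 libraries had 0, 7.17, 0 and 27.6 CPM, from 0, 6, 0 and 21 counts, and a library with 0 counts may still have held a level of up to 3 counts. The day 7 libraries had 37.4, 86.3, 33.9 and 32.3 CPM, all above day 0 (log2 fold change 2.38, SE 0.64, adjusted p = 0.00833). That call was lost without day 7 replicate 2 (adjusted p = 0.0569) and with only the libraries of days 0 and 7 in the fit (0.0681), where the alternatives together spanned 1.0e-05 to 0.0681. On day 14 Ctsk had 84.8, 102 and 103 CPM (3.41, SE 0.65, adjusted p = 0.00179), and on day 21 it had 164, 80.7, 104 and 83.8 CPM (3.58, SE 0.63, adjusted p = 0.000676). Its levels were highest on these 2 days, and they overlapped those of day 7 only through day 7 replicate 2. The differences between day 7 and days 14 (1.03, SE 0.58, adjusted p = 0.604) and 21 (1.20, SE 0.55, adjusted p = 0.22) did not pass the test. The day 28 libraries, at 38.8, 24.8 and 44.7 CPM, overlapped day 0 through day 0 replicate 4 (1.99, SE 0.67, adjusted p = 0.149). Since that replicate holds most of the day 0 counts, leaving it out raised the log2 fold changes of days 7, 14 and 21 to 4.04, 5.08 and 5.25 and brought that of day 28 past the threshold (adjusted p = 0.0164).

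**Figure D3:**
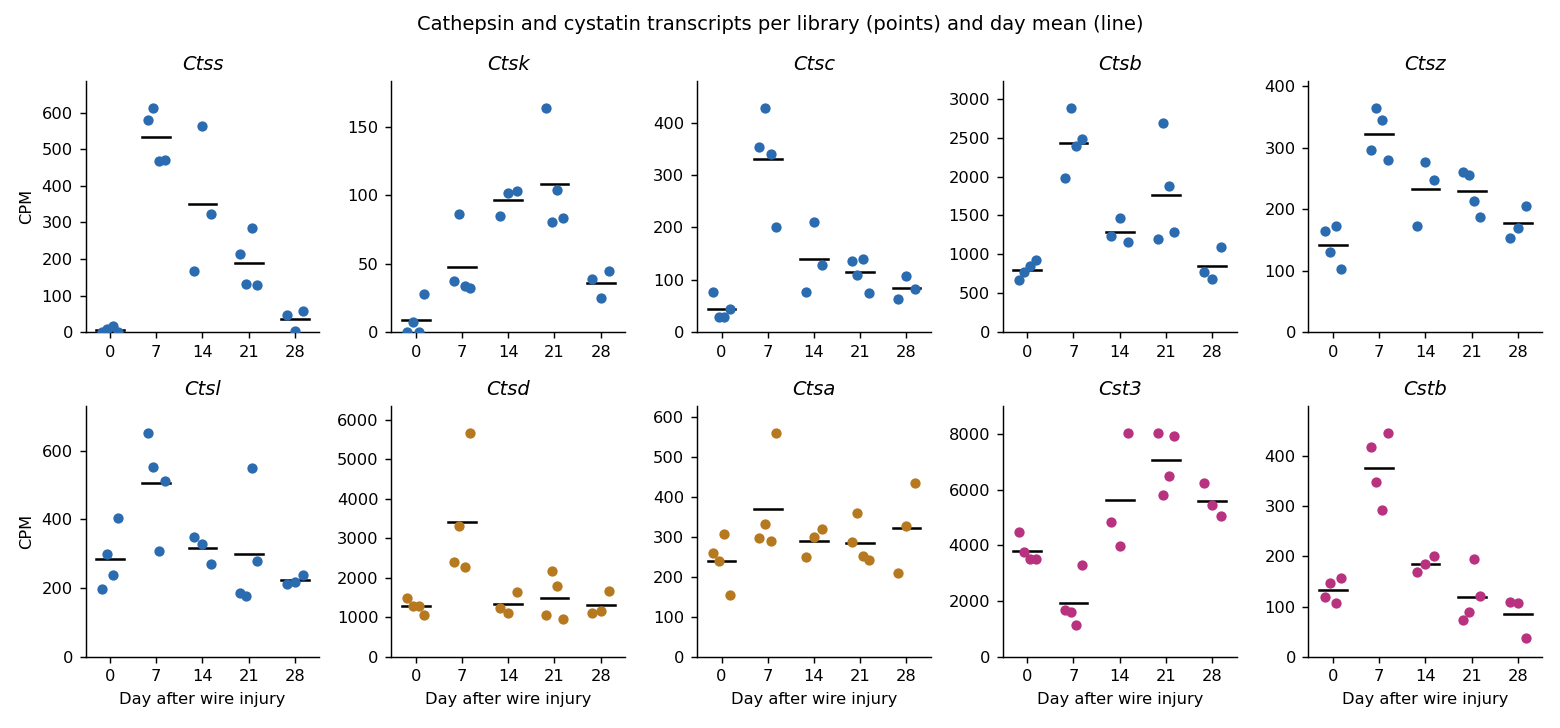
CPM (y axis, linear from 0 and scaled for each gene) of the 10 cathepsins and cystatins in each library (points) by day after injury (x axis), with the day mean as a line, for 4 libraries on days 0, 7 and 21 and 3 on days 14 and 28. Ctss peaks on day 7 at a mean of 533 CPM, Ctsk on day 21 at 108 CPM, and Cst3 is lowest on day 7 at 1929.7 CPM.

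The promoters of 4 members are shown for the motifs they hold, as listed by RefSeq on GRCm38.p6 (a build other than the GRCm39 of the gene positions above), from 250 bases before to 50 after the annotated start, 5′ to 3′ on the gene's strand. Of the 10 members 8 were matched, and Ctsb and Cstb were not. Capitals mark GAGGAA, a core to which the myeloid factor PU.1 can bind, read on either strand (as TTCCTC on the other), and CACGTG, the palindromic E-box at the core of the sites of TFEB, a factor of lysosomal genes. The matches marked below do not overlap each other. Ctss (chr3:95526536-95526835, plus strand) and Ctsk (chr3:95498960-95499259, plus strand) hold GAGGAA at 2 places each, Cst3 (chr2:148875463-148875762, minus strand) at 1, and Ctsd (chr7:142387778-142388077, minus strand) holds CACGTG at 2.
Ctss: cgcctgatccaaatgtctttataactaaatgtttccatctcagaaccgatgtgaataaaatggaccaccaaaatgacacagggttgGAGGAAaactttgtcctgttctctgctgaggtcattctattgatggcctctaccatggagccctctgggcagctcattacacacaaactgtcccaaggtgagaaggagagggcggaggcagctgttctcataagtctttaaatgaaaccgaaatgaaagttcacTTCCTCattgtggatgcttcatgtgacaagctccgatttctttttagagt
Ctsk: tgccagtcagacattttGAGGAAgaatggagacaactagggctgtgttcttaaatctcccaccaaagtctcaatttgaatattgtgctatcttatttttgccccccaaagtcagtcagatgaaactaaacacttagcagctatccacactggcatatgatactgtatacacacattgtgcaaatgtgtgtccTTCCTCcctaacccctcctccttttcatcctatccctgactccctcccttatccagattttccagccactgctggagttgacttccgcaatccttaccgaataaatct
Cst3: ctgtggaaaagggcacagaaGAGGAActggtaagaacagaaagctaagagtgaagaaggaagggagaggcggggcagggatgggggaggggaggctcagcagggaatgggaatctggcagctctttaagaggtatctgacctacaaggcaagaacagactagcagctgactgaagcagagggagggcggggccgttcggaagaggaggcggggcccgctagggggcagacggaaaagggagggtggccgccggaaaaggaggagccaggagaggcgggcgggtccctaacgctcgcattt
Ctsd: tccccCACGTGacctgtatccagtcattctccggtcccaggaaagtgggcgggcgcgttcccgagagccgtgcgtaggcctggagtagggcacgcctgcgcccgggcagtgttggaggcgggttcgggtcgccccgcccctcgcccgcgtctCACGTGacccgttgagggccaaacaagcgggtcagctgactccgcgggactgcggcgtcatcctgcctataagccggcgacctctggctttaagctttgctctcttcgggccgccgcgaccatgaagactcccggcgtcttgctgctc
In Ctss the matches begin 164 bases before the start and at the start base itself, in Ctsk 233 and 58 bases before it, in Cst3 230 bases before it and in Ctsd 245 and 98 bases before it. Over the members, GAGGAA was found in 4 of 8 (Ctss, Ctsk, Ctsc and Cst3) and CACGTG in 3 of 8 (Ctsd, Ctsa and Ctsl). Ctsa has 2 windows, of which only the second holds it, and was counted once, while each window counts by itself in the background, where 28.3% of 32851 RefSeq windows of this length hold GAGGAA and 7.15% hold CACGTG. At 2 or more places GAGGAA occurs in 4.82% and CACGTG in 0.594% of those windows. The AP-1 motif TGANTCA was found in 0 of 8 members and in 7.81% of the windows. A match of letters is not a measurement of binding.

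Cathepsin C, also called dipeptidyl peptidase 1, activates the serine proteases of neutrophil and mast cell granules. Ctsc had 75.9, 28.7, 28.3 and 43.3 CPM on day 0 and 353, 428, 341 and 200 CPM on day 7 (log2 fold change 2.91, SE 0.36, adjusted p = 2.8e-06), with all 4 day 7 libraries above day 0. It stood at 76.8, 210 and 129 CPM on day 14 (1.65, SE 0.37, adjusted p = 0.00695) and at 136, 109, 140 and 74.5 CPM on day 21 (1.39, SE 0.36, adjusted p = 0.0141). The day 14 libraries lay above day 0, by a narrow margin for replicate 1, and day 21 overlapped day 0 through replicate 4. These later calls rested on few libraries. The first was lost without day 14 replicate 2 (adjusted p = 0.127, range over all alternatives 5.7e-05 to 0.194) and the second without day 0 replicate 2 or 3 (0.056 and 0.0543, range 0.000626 to 0.056). On day 28 Ctsc had 63.2, 107 and 83.1 CPM (0.94, SE 0.38, adjusted p = 0.231).

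Cathepsin B, an endopeptidase that can also remove dipeptides from the C-terminal end, was higher on days 7 and 21. Its day 0 libraries had 671, 767, 847 and 923 CPM and its day 7 libraries 1981.8, 2882.3, 2390.2 and 2478.1 CPM (log2 fold change 1.60, SE 0.24, adjusted p = 2.8e-05). On day 14 it had 1233.3, 1471.8 and 1159.9 CPM, which did not pass the test although all 3 lay above day 0 (0.68, SE 0.25, adjusted p = 0.121). The day 21 libraries spread widely, at 1194.6, 2688.2, 1878.0 and 1289.0 CPM (1.14, SE 0.24, adjusted p = 0.00315), and also lay above day 0. At 768, 685 and 1100.9 CPM on day 28 the gene overlapped day 0 (0.09, SE 0.25, adjusted p = 0.916). Both calls held in each of the 27 alternatives tried.

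Cathepsin Z, a carboxypeptidase of lysosomes in immune cells, moved less. Ctsz had 164, 130, 173 and 102 CPM on day 0 and 296, 365, 345 and 281 CPM on day 7, without overlap (log2 fold change 1.18, SE 0.23, adjusted p = 0.00069). On day 21, at 261, 256, 214 and 188 CPM, it again lay above every day 0 library but was not called by edgeR (0.70, SE 0.23, adjusted p = 0.0634), and DESeq2 gave an adjusted p of 0.036. On days 14 (173, 277 and 248 CPM, adjusted p = 0.102) and 28 (154, 170 and 206 CPM, adjusted p = 0.599) it was not called.

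Cathepsin L, which cuts elastin and collagen and acts widely in protein turnover, lay at the threshold. Ctsl had 197, 298, 237 and 404 CPM on day 0 and 653, 553, 309 and 513 CPM on day 7, where replicate 3 fell within the day 0 range (log2 fold change 0.84, SE 0.31, adjusted p = 0.0582). It passed the threshold in 9 of the 27 alternatives tried, DESeq2 among them (0.0354), with adjusted p from 0.0185 to 0.22. From day 14 on the libraries ranged from 178 to 549 CPM, and the log2 fold changes were 0.16, 0.07 and -0.35 on days 14, 21 and 28, none called.

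The members outside the cysteine class were Ctsd and Ctsa. Cathepsin D, the main aspartic protease of lysosomes, had 1499.3, 1281.5, 1295.2 and 1048.5 CPM on day 0 and 2396.7, 3317.2, 2264.6 and 5674.7 CPM on day 7, all above day 0 (log2 fold change 1.41, SE 0.29, adjusted p = 0.000777). The highest value was that of replicate 4, the library with the most smooth muscle signal of that day, and without it the log2 fold change was 1.04 (adjusted p = 0.00477). On days 14, 21 and 28 Ctsd ranged from 949 to 2159.5 CPM and overlapped day 0, with log2 fold changes of 0.05, 0.22 and 0.04. Cathepsin A, which shields the enzymes encoded by Neu1 and Glb1 in a complex, was called on no day. Its libraries ranged from 156 to 309 CPM on day 0 and had 297, 332, 291 and 562 CPM on day 7 (0.62, SE 0.27, adjusted p = 0.113), and without replicate 4 the log2 fold change was 0.34.

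Cystatin C, the secreted inhibitor, was the only member called lower on any day against day 0, and was later called higher. On day 0 Cst3 had 4487.5, 3750.1, 3522.1 and 3501.2 CPM. On day 7 it had 1666.7, 1619.1, 1128.3 and 3304.7 CPM, each below each day 0 library, and fell by 0.98 on the log2 scale (SE 0.26, adjusted p = 0.00762). Here too replicate 4 was the highest of the day, and without it the log2 fold change was -1.38 (adjusted p = 9.5e-05). Day 14 libraries had 4851.6, 3968.9 and 8038.6 CPM and overlapped day 0 (0.56, SE 0.28, adjusted p = 0.304). On day 21 Cst3 had 8052.6, 5810.3, 6492.4 and 7913.4 CPM, all above day 0 (0.89, SE 0.26, adjusted p = 0.0306). When each of the 18 libraries was left out in turn, this call was lost 6 times, namely without day 0 replicate 2, 3 or 4 (adjusted p = 0.0746, 0.0806 and 0.0808) and without day 21 replicate 1, 3 or 4 (0.0876, 0.0501 and 0.0908), and the alternatives together spanned 0.00116 to 0.0908. With a block by the label number that day 0 and day 21 libraries share, edgeR called Cst3 neither on day 7 (adjusted p = 0.0779) nor on day 21 (0.058). In that fit, day 0 replicate 1 was the only library of its day compared directly with day 7. The 3 day 28 libraries, at 6228.9, 5449.4 and 5060.5 CPM, lay above day 0 without passing the test (0.55, SE 0.28, adjusted p = 0.352).

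Cystatin B, the inhibitor within cells, moved opposite to cystatin C on day 7. Cstb had 118, 147, 107 and 157 CPM on day 0 and 418, 347, 291 and 446 CPM on day 7, without overlap (log2 fold change 1.5, SE 0.31, adjusted p = 0.000984). The later libraries ranged from 168 to 201 CPM on day 14, 72.2 to 194 on day 21 and 36.8 to 109 on day 28. None of these days was called, with log2 fold changes of 0.47, -0.16 and -0.65.

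Compared directly with day 7, most members came down by day 28 while Cst3 went up. On day 14 Ctsd was lower than on day 7 (log2 fold change -1.36, SE 0.31, adjusted p = 0.0226) and Cst3 higher (1.54, SE 0.28, adjusted p = 0.00414), against 0.330% of all genes lower and 1.33% higher. The call of Ctsd was lost in 4 of the 18 fits that left out 1 library (up to an adjusted p of 0.174, without day 14 replicate 1), and with only these 2 days in the fit neither was called. On day 21 Ctsc (-1.51), Ctsd (-1.20), Ctss (-1.48) and Cstb (-1.66) were lower and Cst3 higher (1.87, SE 0.27, adjusted p = 9.5e-05), against 3.23% of all genes lower and 4.03% higher. With a block by the label number that day 0 and day 21 libraries share, the calls of Ctsc (adjusted p = 0.292), Ctsd (0.252) and Ctss (0.101) were lost. In that fit, day 21 replicate 2 was the only library of its day compared directly with day 7. Ctss was also near the threshold (adjusted p = 0.0473) and lost its call in 10 of the 18 fits that left out 1 library, and Ctsd lost it without day 7 replicate 4 (0.0512) or day 21 replicate 4 (0.0523). By day 28, 7 members were lower than on day 7, against 8.05% of all genes, and Cst3 was higher (1.53, SE 0.28, adjusted p = 0.00055), against 6.40%. The 7 were Ctss (-3.87, SE 0.58, adjusted p = 0.000114), Cstb (-2.15), Ctsc (-1.96), Ctsb (-1.51), Ctsd (-1.38), Ctsl (-1.19) and Ctsz (-0.86). Those of Ctsl and Ctsz were each lost in 5 of the 18 fits that left out 1 library, with adjusted p of up to 0.0822 and 0.0891. Ctsk was not among them (-0.39, SE 0.61, adjusted p = 0.742). These 3 comparisons share the day 7 libraries. The median log2 difference of the members was -0.643, -0.625 and -1.282 on days 14, 21 and 28, beside -0.007, 0.005 and -0.067 over all genes.

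Between days 14 and 21 no member differed, nor did any other gene in edgeR (0% of genes tested), where 421 genes and 0 members had an unadjusted p under 0.05, and DESeq2 called 13 genes and 0 members. From day 21 to day 28 Ctss was lower (-2.38, SE 0.56, adjusted p = 0.0449), 1 of 10 members against 0.572% of all genes lower and 0.107% higher. Leaving out 1 library ended that call in 10 of 18 fits, up to an adjusted p of 0.155 without day 28 replicate 2.

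The shift between a protease and its inhibitor was also followed within libraries, as a log2 ratio of CPM after adding 2. For Ctss and Cst3 the ratio was -10.33, -8.50, -7.58 and -10.05 on day 0 and -1.52, -1.40, -1.26 and -2.80 on day 7. It was -4.84, -2.81 and -4.63 on day 14, -5.23, -5.43, -4.50 and -5.93 on day 21, and -7.02, -10.00 and -6.37 on day 28. Libraries of days 7, 14 and 21 lay above all of day 0, those of day 28 overlapped day 0, and those of days 14, 21 and 28 lay below the lowest of day 7. The mean difference from day 0 was 7.37 on day 7 (exact two-sided permutation test, p = 0.0286, the smallest that 4 against 4 libraries allow). Over the 14 comparisons made with both ratios the adjusted p was 0.08 (exact permutation test). With so few libraries no adjusted p under the threshold could have been reached, so these tests say nothing for or against a difference in either ratio.

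For the chromosome 3 neighbours Ctsk and Ctss, the ratio ran from -3.89 to -2.80 on day 7, from -2.44 to -0.97 on day 14, from -1.44 to -0.37 on day 21 and from -0.39 to 2.34 on day 28. The libraries of each later day lay above all of day 7, with mean differences of 1.87, 2.77 and 4.12 (exact two-sided permutation tests, p = 0.0571, 0.0286 and 0.0571, none of which could have been smaller with so few libraries, and adjusted p = 0.08 for each). On day 0, where both genes had few counts, the ratio spread from -3.20 to 3.16 and overlapped that of each later day.

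**Figure D4:**
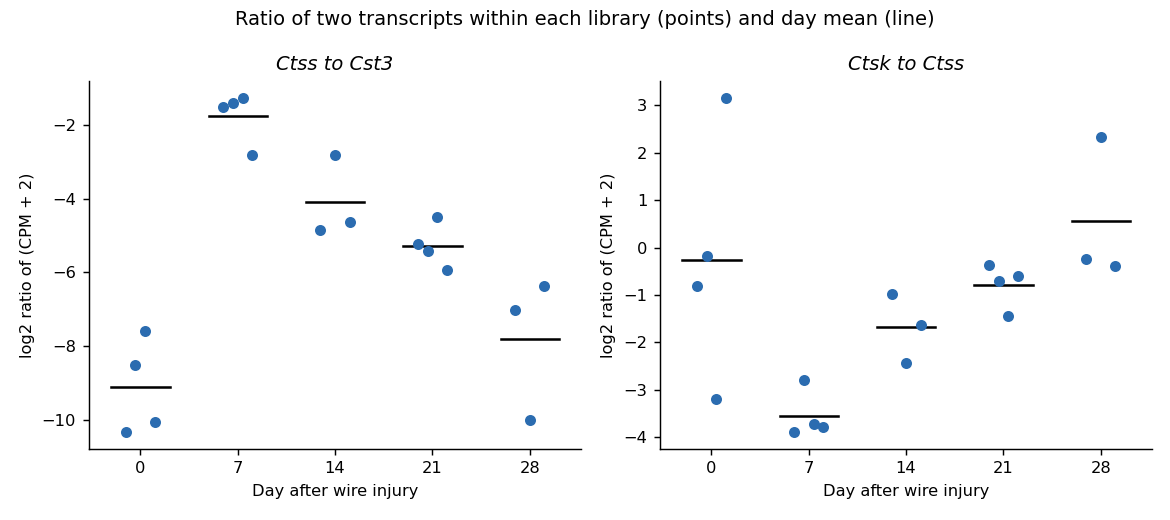
Log2 ratio of Ctss to Cst3 (left) and of Ctsk to Ctss (right), each CPM plus 2 (y axes), in each library (points) by day after injury (x axis), with the day mean as a line. The mean Ctss to Cst3 ratio goes from -9.11 on day 0 to -1.75 on day 7 and -7.80 on day 28, and the mean Ctsk to Ctss ratio from -3.55 on day 7 to 0.57 on day 28.

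Among the members, the pairs whose log2 CPM ran most alike over the 18 libraries were Ctsc and Ctsz (Pearson r = 0.893), Ctss and Ctsz (0.862) and Ctsb and Ctss (0.818). Cst3 had a negative r with 8 of the other 9 members, down to -0.626 with Cstb, and 0.234 with Ctsk. Of all genes tested, those nearest to Ctss were Tyrobp (0.964), an adaptor of myeloid receptors, Itgb2 (0.951), the leukocyte integrin chain, and Lilrb4b (0.951). Ctsc was nearest to Csf1r (0.94), the receptor for the macrophage growth factor, Fcgr3 (0.937) and Tpm3 (0.934), and Ctsb to Csf3r (0.931), Msr1 (0.912), a macrophage scavenger receptor, and Adam8 (0.906). Ctsz was nearest to Pik3cd (0.956), Sox4 (0.932) and Sirpa (0.932). The 3 nearest to Ctsk were Pla2g15 (0.904), a lysosomal phospholipase, Ccn4 (0.891) and Dnajb14 (0.887), and the 3 nearest to Cst3 were Htra1 (0.937), a secreted serine protease, Serpine2 (0.923), a secreted protease inhibitor, and Fbln5 (0.898), a protein of elastic fibres. For Ctsd they were Eif4a1 (0.91), Hmox1 (0.878) and Prdx1 (0.868), for Ctsa Glb1 (0.859), Mdp1 (0.82) and Gabarap (0.781), for Ctsl Lcn2 (0.806), Adam9 (0.805) and Cstb (0.797), and for Cstb Rpl32 (0.901), Mrpl52 (0.881) and Slc25a5 (0.87). These values describe libraries that share the same 5 days and their cell mixture.

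Around the members, 54 genes of the same system were listed, of which 37 were tested. Against day 0, 12 were higher and 2 lower on day 7, 10 and 0 on day 14, 12 and 1 on day 21, and 2 and 0 on day 28, in the comparisons whose shares over all genes are given above. The median of the 37 was 0.56, 0.40, 0.18 and 0.01 on these days. Of 7 further lysosomal proteases, 4 were tested. Legumain, the asparaginyl endopeptidase that matures several cathepsins, went with the day 7 members, since Lgmn had 135 to 240 CPM on day 0 and 520 to 967 on day 7 (log2 fold change 1.84, SE 0.27, adjusted p = 2.4e-05). Ctsf, the gene of cathepsin F, went the other way, from 43.3 to 78.9 CPM to between 12 and 46.8 (-1.34, SE 0.39, adjusted p = 0.0148, with overlap). Ctsh and Ctso were not called, and Ctse, Ctsg and Ctsw had too few counts to test.

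Among 21 other inhibitors 8 were tested, and 3 were higher on each of days 7, 14 and 21, beside 11.3%, 4.80% and 5.92% of all genes. Serpinb1a, the gene of an inhibitor of neutrophil serine proteases, had 0 to 5.25 CPM on day 0 and 29.1 to 124 on day 7 (4.94, SE 0.77, adjusted p = 4.8e-05), and it was still called on day 28 (3.90, SE 0.81, adjusted p = 0.0133). The other 2 were Ctla2a and Ctla2b, related to the propeptides of cysteine cathepsins. Ctla2a had 0 to 13.1 CPM on day 0 and 84.5 to 704 on day 7 (5.96, SE 0.83, adjusted p = 1.2e-05). Ctla2b had no count on day 0 and 35.9 to 48.1 CPM on day 7, at least 10.5-fold higher than 3 counts per library would give (adjusted p = 0.000161). The pair are close copies and both overlap Gm49391 on the same strand, so the split of reads between them is uncertain. The stefin genes Csta1, Csta2, Csta3, Stfa1, Stfa2, Stfa3 and Stfa2l1, relatives of Cstb, had at most 5 counts in any library and could not be tested. Cst6, another cystatin gene, had 0 to 8.94 CPM on day 0 and 16.2 to 55.8 on day 7. That difference did not pass the test (2.91, SE 1.10, adjusted p = 0.0649). On day 28, with at most 2 counts in a library, Cst6 was lower than on day 7 (-4.62, SE 1.44, adjusted p = 0.0312).

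Of 12 sorting and partner genes, 2 were higher and 0 lower on day 7, beside 11.3% and 8.53% of all genes, and 1 was higher and 3 lower on day 28 than on day 7, beside 6.40% and 8.05%. Psap, which encodes the precursor of the saposins, had 1098.4 to 1639.2 CPM on day 0 and 1645.3 to 3592.1 on day 7 (0.91, SE 0.22, adjusted p = 0.00366). Igf2r, one of the mannose 6-phosphate receptors that carry cathepsins to lysosomes, went from 26.8 to 55.1 CPM to between 81.7 and 117 (1.14, SE 0.28, adjusted p = 0.00496). On day 21 Igf2r (1.11) and Lamp2 (1.35) were higher and Nagpa (-1.51), whose product uncovers that sugar tag, lower. Neu1 and Glb1, whose products are the partners of cathepsin A, were not called on any day.

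Of 6 transcription factor genes 5 were tested, and the myeloid factors were the ones called. Spi1, which encodes PU.1, had 0 to 5.25 CPM on day 0 and 53.8 to 120 on day 7 (5.80, SE 0.86, adjusted p = 2.6e-05), and Irf8 had 0 to 11.9 and 33.9 to 67.7 CPM (4.20, SE 0.99, adjusted p = 0.00303). The genes of the lysosomal factors were not called on day 7, with log2 fold changes of -0.63 for Tfeb (SE 0.35, adjusted p = 0.245), 0.79 for Tfe3 (SE 0.44, adjusted p = 0.242) and 0.14 for Mitf (SE 0.83, adjusted p = 0.936).

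Substrate genes were listed too, and 4 of 8 were higher and 1 lower on day 7, 6 higher on each of days 14 and 21, and 1 on day 28. Of all genes tested, 11.3% were higher and 8.53% lower on day 7, and 4.80%, 5.92% and 0.970% higher on days 14, 21 and 28. Cd74, the invariant chain that cathepsin S cuts, had 35.4 to 323 CPM on day 0 and 1064.8 to 1649.6 on day 7 (3.50, SE 0.51, adjusted p = 1.8e-05), and it was the substrate gene still called on day 28 (2.74, SE 0.51, adjusted p = 0.00721). Fn1, the gene of fibronectin, reached its highest mean on day 14 (4920.7 CPM against 1229.5 on day 0, log2 fold change 2.00, SE 0.22, adjusted p = 2.1e-06). Col1a1, a collagen I chain, did so on day 21 (18299.5 CPM against 2549.5, 2.84, SE 0.28, adjusted p = 4.1e-07). Eln, the gene of elastin, did so on the same day (39564.5 CPM against 7823.3, 2.34, SE 0.46, adjusted p = 0.00198). Col1a2, Sparc, Bgn, Ctsk and Cst3 also had their highest means then, and no gene differed between days 14 and 21 in edgeR. Bgn, the gene of biglycan, was lower on day 7 (-0.96, SE 0.25, adjusted p = 0.00649).

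Several members share ground with other genes, and whether the authors counted by strand is not stated. Ctsa (chromosome 2, 164674778 to 164682961, plus strand) overlaps Neurl2 and Pltp on the other strand, which had up to 23 and 65 counts where Ctsa had 104 to 348. Ctsb (chromosome 14, 63358384 to 63383372, plus strand) overlaps Fdft1 (up to 35 counts against 414 to 1604), and Ctsz (chromosome 2, 174267304 to 174280832, minus strand) overlaps Nelfcd (up to 20 against 78 to 221). Ctsd (chromosome 7, 141929646 to 141941775, minus strand) and Ctsl (chromosome 13, 64507151 to 64518704, minus strand) overlap the same-strand genes Gm49369 and Gm49230, which had 0 counts in all libraries. Ctsl further overlaps Gm47123, a lncRNA on the other strand, not analysed here. Ctsc (chromosome 7, 87927092 to 87960096, plus strand), Cst3 (chromosome 2, 148713635 to 148717887, minus strand) and Cstb (chromosome 10, 78261499 to 78263991, plus strand) have no such overlap. Only overlaps of exon with exon were looked for.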

How the data were processed

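RNA of laser-dissected carotid tissue was profiled by MACE, which sequences transcript 3′ ends, in 18 libraries grouped by the day on their labels. Reads were deduplicated by molecular identifier, trimmed and quantified with Salmon 1.9.0 against the mm39 transcriptome by the authors. The deposited values used here are their estimated counts per gene, given as whole numbers, which needed no rounding. A second table, normalised by the authors with DESeq2 1.36.0, was not used here. The annotation release and the use of strand are not given in the sources used here. No row of the count table lacked a gene name, and libraries held 440675 to 878310 counts.

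The test was run with edgeR 4.0.16 under R 4.3.3 (filterByExpr with the day as group, TMM, quasi-likelihood F test, biological coefficient of variation 0.449) in 1 fit over 18 libraries with the day as the only term. P-values were adjusted by Benjamini-Hochberg over 10312 genes, with a threshold of 0.05. The SE is the log2 fold change divided by the root of F. Alternatives were DESeq2 1.42.0, RLE size factors, library totals alone, no filter on low counts, only 2 days in the fit, a replicate block, a block by the label number that day 0 and day 21 libraries share, a threshold of 0.01, thinning to 440675 counts, and each library left out in turn. Ratios used CPM + 2 with exact permutation tests, and correlations log2 CPM with a prior count of 2. The edgeR and DESeq2 tests against day 0 were tried on simulated counts, and the other steps were not.

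The 10 members, the lists of related genes and of markers, the motifs and the tests were chosen with earlier results of these data known. All members are described. Related genes are named where called in at least 1 comparison with day 0, at most 4 per group by the smallest p on day 7, and the 3 genes most like each member by Pearson correlation are given. The uncalled related genes that are named, and Eln, Col1a2 and Sparc, fall outside that rule and were picked after their values were seen. Gene positions are from GENCODE on GRCm39, and promoter sequences from RefSeq on GRCm38.p6.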

Additional observations from a re-analysis of the deposited data

Results flagged for a closer look

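Among 30 groups of 4 libraries, 2 held a library far from the other 3, where chance gives about 1 in 20 groups. They were the 562 CPM of Ctsa in day 7 replicate 4 and the 86.3 CPM of Ctsk in day 7 replicate 2.

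The effect of injury differed between days, by the direct edgeR test of the difference on the log2 scale, for these members. Between days 28 and 7 it differed by -3.87 for Ctss, -2.15 for Cstb, -1.96 for Ctsc, -1.51 for Ctsb, -1.38 for Ctsd, -1.19 for Ctsl, -0.86 for Ctsz and 1.53 for Cst3. Between days 21 and 7 the differences were -1.66 for Cstb, -1.51 for Ctsc, -1.48 for Ctss, -1.20 for Ctsd and 1.87 for Cst3. Between days 14 and 7 they were -1.36 for Ctsd and 1.54 for Cst3, and between days 28 and 21 -2.38 for Ctss. Some of these calls did not hold in all 27 alternatives. Ctss lost its call in 13 between days 28 and 21 and in 13 between days 21 and 7. Between days 28 and 7, Ctsz lost it in 8 and Ctsl in 6. Between days 14 and 7, Ctsd lost it in 6. Where another of these calls was lost, it was in fewer alternatives.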

How the results depend on the processing

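On day 7 against day 0, 7 to 9 members were called in every alternative, and on day 14 there were 2 to 4. For day 21 the count of 5 became 3 at a threshold of 0.01 and 3 to 5 when each library was left out in turn. For day 28 the count of 0 became 2 with no filter on low counts and 0 to 1 with a library left out. Between days 14 and 7 the count of 2 became 5 with DESeq2, 4 with no filter on low counts, 0 with only the 2 days in the fit, 1 at a threshold of 0.01, and 1 to 3 with a library left out. The count of 5 between days 21 and 7 became 3 to 6 with a library left out. Between days 28 and 21 the count of 1 became 2 with DESeq2, 3 with no filter on low counts, 0 with only the 2 days in the fit, 0 at a threshold of 0.01, and 0 to 2 with a library left out. Where a setting changed a count, the cause was not tested.

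The difference in the log2 ratio of Ctsk to Ctss between days 21 and 0, -0.52 with 2 CPM added, became 0.04 with 0.5 CPM added, and ran from -1.51 to 0.61 with a library left out. Between days 28 and 0 it was 0.83 and ran from -0.15 to 1.97. Of 2430 alternative values of single members (log2 fold changes in the 9 comparisons), no called value changed sign, 68 lost and 30 gained a call. Scaling by library totals alone moved the median of all genes on day 7 from 0.071 to 0.118.

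No pairing by replicate number was seen, which does not exclude one. Over 33 same-numbered pairs the correlation of residuals ran from -0.13 to 0.20, with a median of -0.01. Over 95 other pairs across days it ran from -0.29 to 0.23, with a median of 0. With a replicate block the counts of members called were 8, 3, 5 and 0 on days 7, 14, 21 and 28 against day 0, as without it. The labels give 3 numbers to both a day 0 and a day 21 library (residual correlations -0.01 to 0.06), and what the number marks is not stated. With a replicate block by that number, in which all libraries without a shared number form 1 level, the counts were 7, 2, 4 and 0. From day 7 to day 21 it left 2 calls, without those of Ctsc, Ctsd and Ctss, and from day 21 to day 28 it left 0. Against day 0, edgeR with this block did not call Ctsd (adjusted p = 0.103) or Cst3 (0.0779) on day 7, nor Cst3 on day 21 (0.058). Day 0 replicate 1 and day 21 replicate 2 were the only libraries of their days in a level with days 7, 14 and 28. A call lost with this block thus cannot tell a pairing from fewer libraries compared directly. Depth limits Ctss and Ctsk on day 0, where they rest on at most 11 and 21 counts in a library.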
